A study of Mus musculus with 4 samples.

Results

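The genes described here carry glucose carbon through glycolysis and the pentose phosphate pathway of mouse bone marrow-derived mast cells. They are 35 genes chosen by name for their place in this pathway: glucose and lactate carriers, the enzymes of each glycolytic step with their alternative isoforms, kinases that set the flux, the companions Bnip3, P4ha1 and P4ha2, and the pentose phosphate enzymes. The choice was made with earlier results of these data known. Contrasts between these genes and all genes are therefore descriptions and not independent tests. Members were the probe sets annotated with exactly 1 gene symbol from this set, which gave 55 probe sets for 29 of the 35 genes, out of 22626 probe sets and 12393 genes on the array. Hk3, Gpi1, Gapdh, Eno1, Pfkfb4 and G6pdx had no such probe set and were not analysed here.

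The cells had been grown for 4 to 6 weeks from femoral and tibial marrow of 8 to 12 week-old mice in 5 ng/ml interleukin-3, when over 98% carried Kit and the IgE receptor, and were either wild-type (Pac1+/+) or Pac1-/-, lacking the dual-specificity MAP kinase phosphatase that Dusp2 encodes. All cultures, of both genotypes, were loaded with IgE against dinitrophenyl (100 ng/ml) for 18 h and then activated through the IgE receptor with the antigen DNP-HSA (20 ng/ml) for 2 h. No resting culture is among the arrays, so every level given is that of an activated cell. Each genotype had 2 independent cultures, numbered replicates 1 and 2, and each culture 1 Affymetrix array. The labels name neither the mouse strain nor the deleted part of the gene. The p-values for genotype rest on the spread between 2 cultures per genotype, and so few arrays limit the precision of all values.

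Glycolysis splits glucose into pyruvate in the cytosol and yields ATP without oxygen, and lactate dehydrogenase then turns pyruvate into lactate so that the pathway can go on. The pentose phosphate pathway branches off after the first phosphorylation and supplies NADPH and ribose phosphate. Several steps are served by isoenzymes from separate genes, and in low oxygen the transcription factor HIF raises many of these genes together. Activated mast cells use glucose to fuel secretion and cytokine synthesis.

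Mast cell identity was checked first: 7 of 9 mast cell markers read at least 100 on all 4 arrays, Ms4a2 and Mcpt4 being the exceptions, and the summed marker intensity was 42456 and 44982 in wild-type and 38374 and 48062 in Pac1-/- cells. Single markers could differ widely between arrays. Ms4a2 read 143 and 3261 in wild-type replicates 1 and 2 and 41.9 and 1502 in Pac1-/- replicates 1 and 2. Tpsb2 read 5838 and 7259 in wild-type and 6588 and 476 in Pac1-/- cells in the same order. Of 34 markers of macrophages, neutrophils, basophils, erythroid cells, lymphocytes and stromal cells on the array, only the macrophage marker Adgre1 read at least 100 on every array. Their summed intensity in wild-type and Pac1-/- cells respectively lay between 441 and 503 and between 385 and 393 for macrophages, between 328 and 352 and between 235 and 545 for neutrophils, and at most 169 on any array for each other list. C1qa, Camp, Alas2 and Cd3g read under 12 on every array, while Ngp, S100a9, Csf1r, Epor and Mcpt8 reached 124, 107, 102, 107 and 128 on their highest. Their part in the results was not tested. The Pac1-/- replicate 2 array stood apart by its deposited median, 24.5 against 40.6 to 49.3, and by the 3' to 5' ratio of its Gapdh control, 191 against 0.80 to 1.36. The same ratio of the b-Actin control was 109 and 1.58 in wild-type replicates 1 and 2 and 293 and 54.8 in Pac1-/- replicates 1 and 2, so by that control 3 arrays had little 5' signal, both replicate 1 arrays the least. Each array measures the RNA of a whole culture, in which fewer cells of a type and less RNA per cell cannot be told apart.

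Of the 29 genes with a probe set, 19 read at least 100 on all 4 arrays by their brightest probe set, 4 read under 100 on all 4, and 6 lay in between. For isoenzymes this gave one reading per gene against a fixed mark, since intensities of different probe sets are not comparable with each other. Among lactate dehydrogenases, Ldha, the muscle-type subunit, read between 3049 and 5265, while the brightest of the 4 probe sets of Ldhb, the heart-type subunit, read between 58.1 and 95.5. The enolase genes Eno2 and Eno3, the neuronal and muscle forms, read between 19.2 and 52.3 and between 35.0 and 56.2. The lactate exporter gene Slc16a3 stayed between 29.8 and 80.3, and the monocarboxylate carrier gene Slc16a1 between 47.4 and 126. Of the phosphofructokinase genes, which encode the committing step, the platelet form Pfkp read between 1117 and 1437 on every array, the liver form Pfkl between 36.3 and 205, and the muscle form Pfkm between 76.4 and 134.

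**Figure D1:**
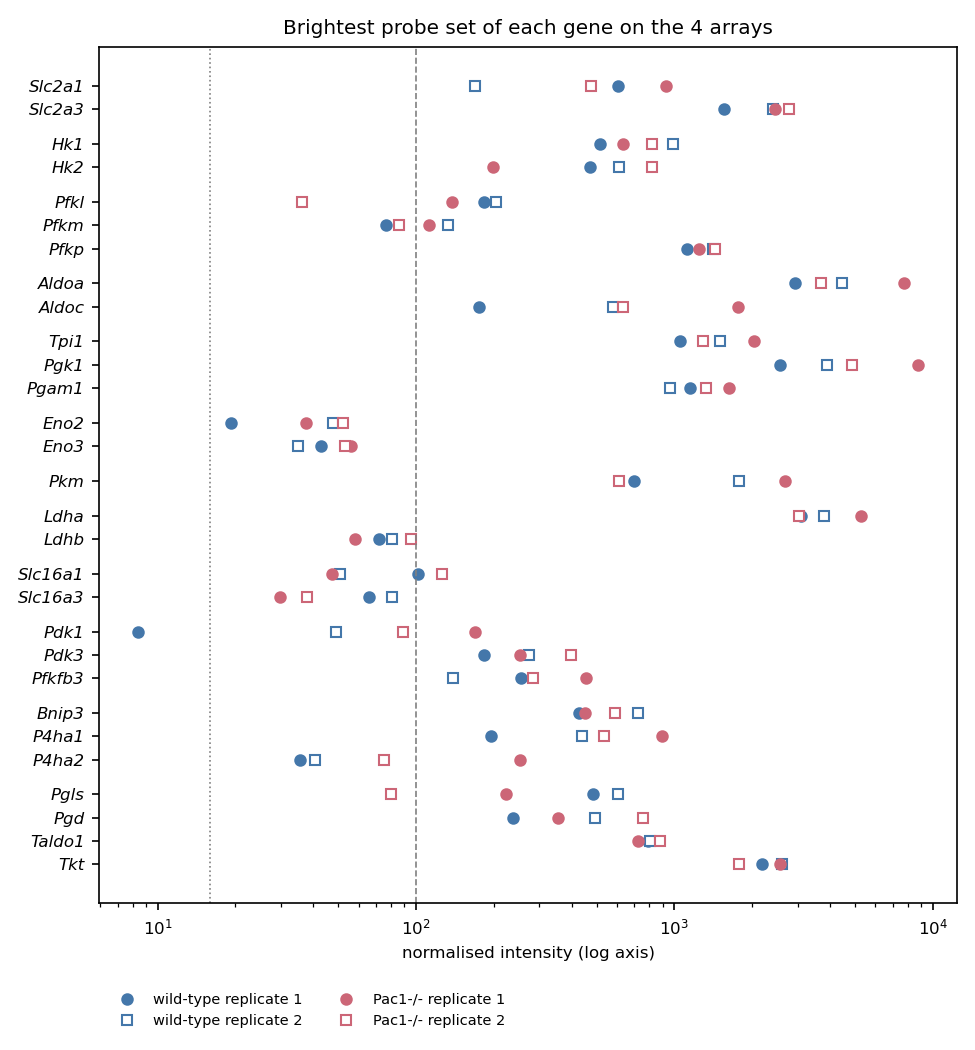
Normalised intensity (log axis) of the brightest probe set of each of the 29 genes on the 4 arrays, grouped by step from carriers to pentose phosphate enzymes. Circles are replicate 1 and open squares replicate 2, wild-type in blue and Pac1-/- in red; the dashed line is the intensity minimum of 100 for testing and the dotted line the floor of 16. For Aldoa, Aldoc, Pgk1 and P4ha1 the filled red circle, Pac1-/- replicate 1, lies to the right of the other arrays.

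A probe set was tested if its intensity averaged 100 or more across the arrays, which 23 genes passed with their brightest probe set and 42 of the 55 probe sets passed in all. The 6 genes that did not pass were Eno2, Eno3, Ldhb, Slc16a1, Slc16a3 and Pdk1. P4ha2 passed, at a mean of 101, only through its reading on Pac1-/- replicate 1. The minimum therefore favoured its place in the counts of genes higher in Pac1-/- cells or highest on that array. Values are intensities after quantile normalisation of the arrays, and differences are log2 differences, Pac1-/- minus wild-type, with values below 16 set to 16. The question of the study's design was which transcripts of activated mast cells differ when Pac1 is lost. None of the 42 probe sets had an adjusted p under 0.05 by limma, and nor had any of the 7770 probe sets tested (0%). At an unadjusted p under 0.05 there were 2 of the 42, 1 for Tpi1 and 1 for Pgls, against 3.38% (263) of all probe sets. Of those 263, 66.5% were higher in Pac1-/- cells; the share was 53.7% on the values as deposited and 91.6% with the arrays centred on their medians, which moved the median log2 difference of all tested probe sets from 0.06 to 0.66.

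The 23 genes read more often higher than lower in Pac1-/- cells: 17 had a log2 difference above 0 and 6 below. Among all 4998 tested genes the share above 0 was 56.1%. The median log2 difference of the 23 was 0.37, against 0.10 for all tested genes. The count above 0 was 19 on the values as deposited (54.8% of all tested genes) and 21 with median centring (78.8%). In 7 genes both Pac1-/- arrays read above both wild-type arrays (26.1% of all tested genes) and in 2, Pfkl and Pgls, below (11.5%), while in the other 14 the genotypes overlapped. With the Pac1-/- replicate 2 array left out, 16 of 23 were above 0, with a median of 0.34. With wild-type replicate 1 left out, 13 of 23 were, with a median of 0.07. Leaving out Pac1-/- replicate 1 gave 17 of 23 and a median of 0.20, and leaving out wild-type replicate 2 gave 19 of 23 and 0.48. The share of all tested genes above 0 was not computed with an array left out.

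Within the replicate numbers the picture differed. Between the replicate 1 arrays 19 of the 23 genes read higher in Pac1-/- cells (53.7% of all tested genes), with a median log2 difference of 0.58 against 0.06 for all. Between the replicate 2 arrays 13 read higher (57.3%), with a median of 0.13 against 0.18. At least 2-fold higher between the replicate 1 arrays were 6 genes, Aldoa, Aldoc, Pgk1, Pkm, P4ha1 and P4ha2, against 8.24% of all tested genes, and at least 2-fold lower were Hk2 and Pgls (7.98%). P4ha2 was tested only because of its Pac1-/- replicate 1 reading, so its place among the 6 was favoured by the intensity minimum. Between the replicate 2 arrays only Slc2a1 and Pfkfb3 were at least 2-fold higher (14.2%), and Pfkl, Pkm and Pgls were at least 2-fold lower (14.8%). No test of the difference between the replicate numbers could be made with 1 array in each cell of the design.

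**Figure D2:**
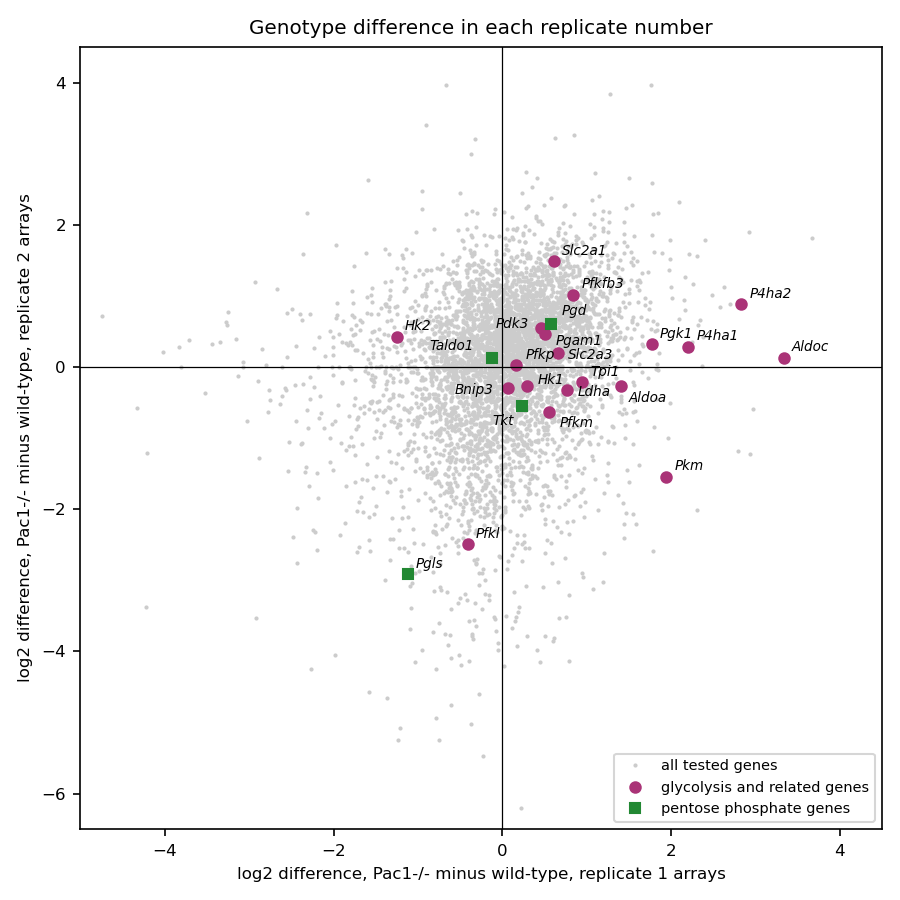
Log2 difference between Pac1-/- and wild-type on the replicate 1 arrays (x axis) and on the replicate 2 arrays (y axis), for all 4998 tested genes in grey, the glycolysis and related genes in purple and the pentose phosphate genes in green, each by its brightest probe set. Aldoc, P4ha2, P4ha1, Pkm and Pgk1 lie far to the right and near or below the horizontal zero line except P4ha2, and Pgls lies low on both axes.

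The 4 arrays were also compared by which one gave the highest reading. Pac1-/- replicate 1 was highest for 11 of the 23 genes, against 21.2% of all tested genes, and wild-type replicate 1 was highest for 0 (19.1%) but lowest for 13 (27.8%). Among all 42 tested probe sets wild-type replicate 1 was highest for 4 (19.7% of all tested probe sets), dimmer ones of Slc2a3, Pfkp, Pfkfb3 and P4ha1. Wild-type replicate 2 and Pac1-/- replicate 2 were highest for 6 genes each (22.3% and 37.3%). The 11 genes were Slc2a1, Aldoa, Aldoc, Tpi1, Pgk1, Pgam1, Pkm, Ldha, Pfkfb3, P4ha1 and P4ha2. Of these, P4ha2 was tested only through its reading on Pac1-/- replicate 1. The count of genes highest on this array depends on scaling. It was 12 on the values as deposited (22.4% of all tested genes) and 5 with median centring, where Pac1-/- replicate 2 is raised most and 12.5% of all tested genes were highest on Pac1-/- replicate 1. No pentose phosphate gene was among the 11, but only 4 were tested, and the gene added on the values as deposited was 1 of them, Tkt.

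The spread of the 23 genes was divided differently from that of other genes. Of their sum of squares on the log2 scale, 46.8% lay between the genotypes, 21.7% between the replicate numbers and 31.5% in the remainder. Over all tested genes these shares were 15.3%, 75.2% and 9.5%. The remainder is the part in which the genotype difference was unlike in replicates 1 and 2, and genes with large differences such as Aldoc, P4ha2 and Pkm weigh most in such sums.

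**Figure D3:**
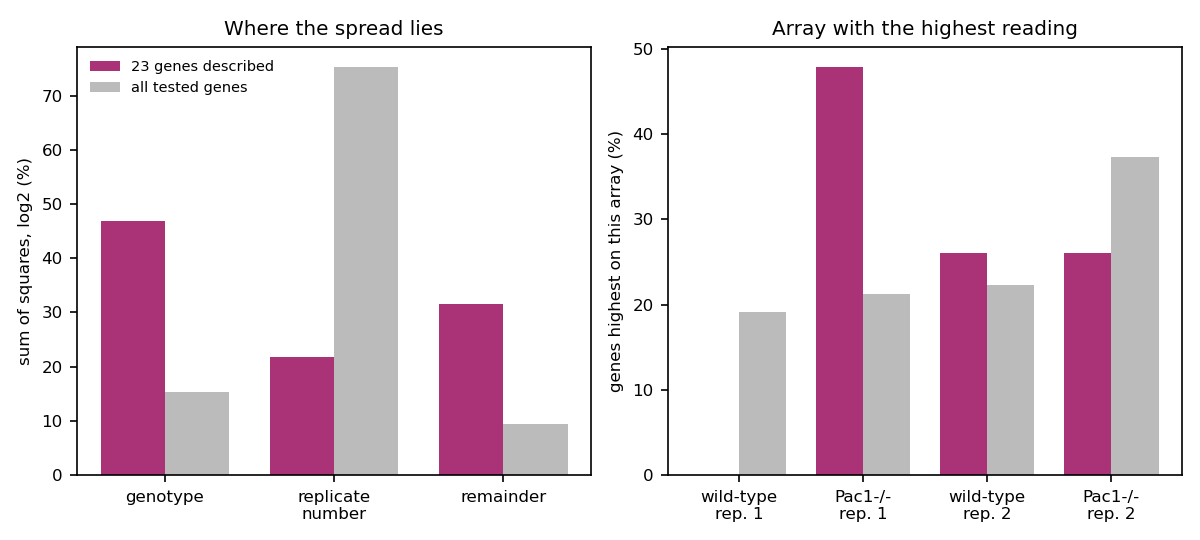
Left, share of the log2 sum of squares (%) between genotypes, between replicate numbers and in the remainder, for the 23 tested genes (purple) and all 4998 tested genes (grey). Right, share of genes (%) whose highest reading was on each array; Pac1-/- replicate 1 was highest for 11 of the 23 genes, and wild-type replicate 1 for none of them.

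Glucose enters through facilitative carriers. The brightest probe set of Slc2a1, the widely expressed carrier, read 606 and 169 in wild-type replicates 1 and 2 and 926 and 474 in Pac1-/- replicates 1 and 2. The genotypes overlapped, each Pac1-/- array being above its own wild-type number, and the log2 difference was 1.05 ± 0.84 (SE, n = 2 per genotype; limma adjusted p = 0.866). Its other 2 probe sets had log2 differences of 0.11 and -0.54. Slc2a3, a high-affinity carrier of blood cells and neurons, read 1559 and 2415 in wild-type and 2458 and 2767 in Pac1-/- cells, without overlap, a log2 difference of 0.43 ± 0.42 (limma adjusted p = 0.878). A second bright probe set of Slc2a3 read 1322 and 1270 against 2188 and 2458, a log2 difference of 0.84 ± 0.35 (limma adjusted p = 0.866). The third tested one had a difference of -1.61, its Pac1-/- replicate 2 reading being 16.6, next to the floor. A further Slc2a3 probe set, too dim for testing, read 89.65 and 193 in wild-type against 21.55 and 17.3 in Pac1-/- cells, lower without overlap.

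Hexokinases trap glucose by phosphorylation. Hk1, the housekeeping form, read 516 and 985 in wild-type and 633 and 821 in Pac1-/- cells by its brightest probe set. The log2 difference of 0.02 ± 0.50 was far inside the spread between cultures. Its other probe set, too dim for testing, read 38.0 and 223 in wild-type against 7.8 and 9.2 in Pac1-/- cells, lower without overlap. Hk2, the inducible form, read 471 and 611 in wild-type and 198 and 822 in Pac1-/- cells. The Pac1-/- cultures thus held both the lowest and the highest reading of Hk2, and the log2 difference of -0.41 ± 0.84 had opposite signs in replicate 1 (-1.25) and replicate 2 (0.43) and turned to 0.38 with median centring.

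At the phosphofructokinase step, Pfkp varied little by its brightest probe set, with 1117 and 1408 in wild-type and 1245 and 1437 in Pac1-/- cells (log2 difference 0.09 ± 0.37). Its second probe set read 1272 and 474 against 683 and 30.4, so that the 2 probe sets gave different accounts of the same gene. Pfkm read 76.4 and 134 in wild-type and 112 and 85.7 in Pac1-/- cells, with overlap, and its log2 difference of -0.04 ± 0.47 was 0.25 with median centring. Pfkl read 184 and 205 in wild-type and 138 and 36.3 in Pac1-/- cells, a log2 difference of -1.45 ± 0.79 (limma adjusted p = 0.866), of which -0.41 was seen in replicate 1 and -2.50 in replicate 2. Its second probe set read 67.0 and 229 in wild-type and 198 and 38.7 in Pac1-/- cells, with overlap, and its differences of 1.56 and -2.57 had opposite signs in replicates 1 and 2. Pfkfb3, the bifunctional enzyme whose product activates phosphofructokinase, read 254 and 139 in wild-type and 454 and 282 in Pac1-/- cells. Its genotypes did not overlap, and its log2 difference was alike in both numbers, 0.84 and 1.02 (0.93 ± 0.53 in all; limma adjusted p = 0.866). A dimmer Pfkfb3 probe set, at 331 and 29.1 against 166 and 25.2, was lower in Pac1-/- cells in both numbers.

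The aldolases cleave the phosphorylated hexose. Aldoa, the main form outside liver and brain, read 2922 and 4444 in wild-type and 7734 and 3704 in Pac1-/- cells. Pac1-/- replicate 1 was the highest of the arrays in each of the 4 Aldoa probe sets, between 2.65- and 3.59-fold above wild-type replicate 1, while between the replicate 2 arrays the differences lay between -0.96 and 0.19 on the log2 scale. All 4 are of the type marked _x_at, which may bind related transcripts, so they may share signal. Aldoc, the brain form, had the widest gap between the replicate 1 arrays among the brightest probe sets of the 23 tested genes: 175 and 577 in wild-type against 1766 and 632 in Pac1-/- cells, which is 10.1-fold between the replicate 1 arrays and 1.10-fold between the replicate 2 arrays (log2 difference 1.73 ± 0.90; limma adjusted p = 0.866). The second Aldoc probe set was under 16 on both wild-type arrays and read 132 and 42.0 in Pac1-/- cells.

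Triose phosphate isomerase, phosphoglycerate kinase and phosphoglycerate mutase carry the triose stage, in which the first ATP is gained. Pgk1 read 2570 and 3911 in wild-type and 8770 and 4870 in Pac1-/- cells, without overlap, and its log2 difference was 1.04 ± 0.51 (limma adjusted p = 0.866), with 1.77 in replicate 1 and 0.32 in replicate 2. Its 3 probe sets gave log2 differences of 1.04, 0.85 and 1.14, and in each of them both Pac1-/- arrays were above both wild-type arrays. Tpi1 read 1056 and 1499 in wild-type and 2037 and 1293 in Pac1-/- cells, with overlap (log2 difference 0.37 ± 0.46). A dimmer Tpi1 probe set read 355 and 393 against 1037 and 713, a log2 difference of 1.20 ± 0.40 (95% confidence interval 0.06 to 2.34; limma unadjusted p = 0.043, adjusted p = 0.866). Pgam1 read 1147 and 964 in wild-type and 1627 and 1326 in Pac1-/- cells, and its differences of 0.50 and 0.46 in replicates 1 and 2 were close to each other (0.48 ± 0.37; limma adjusted p = 0.866).

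Pyruvate kinase and lactate dehydrogenase end the pathway. Pkm read 699 and 1783 in wild-type and 2689 and 613 in Pac1-/- cells. The Pac1-/- arrays therefore bracketed the wild-type ones, with a log2 difference of 1.94 in replicate 1 and -1.54 in replicate 2. Ldha read 3083 and 3804 in wild-type and 5265 and 3049 in Pac1-/- cells, which is the same order with a smaller range (0.77 and -0.32). Pyruvate dehydrogenase kinases hold pyruvate back from the mitochondria. Pdk3 read 183 and 273 in wild-type and 252 and 399 in Pac1-/- cells (log2 difference 0.50 ± 0.47; limma adjusted p = 0.876). Pdk1 was too dim for testing: its brightest probe set read 8.4 and 49.1 in wild-type and 169 and 88.9 in Pac1-/- cells, and its other probe set 15.0 and 10.4 against 174 and 42.7. Both Pdk1 probe sets read highest on Pac1-/- replicate 1, as for Aldoc and Pgk1.

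The prolyl hydroxylase subunits P4ha1 and P4ha2, which modify collagen, and the mitochondrial protein Bnip3, which acts in mitophagy, are not glycolytic enzymes but are known targets of HIF. P4ha1 read 195 and 439 in wild-type and 898 and 534 in Pac1-/- cells, a log2 difference of 1.24 ± 0.61 (limma adjusted p = 0.866). P4ha2 read 35.6 and 40.8 in wild-type and 253 and 75.2 in Pac1-/- cells, a difference of 1.86 ± 0.73 (limma adjusted p = 0.866) whose size is approximate because 3 of the arrays read under 100. It passed the intensity minimum only through Pac1-/- replicate 1. Neither gene overlapped between genotypes by these probe sets, and both differences were larger in replicate 1 (4.60- and 7.12-fold) than in replicate 2 (1.22- and 1.84-fold). The second P4ha1 probe set went the other way, at 323 and 176 in wild-type against 174 and 19.8 in Pac1-/- cells. Bnip3 did not follow the prolyl hydroxylases: it read 428 and 723 in wild-type and 450 and 589 in Pac1-/- cells, a difference of -0.11 ± 0.46 that was 0.00 on the values as deposited and 0.63 with median centring.

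In the pentose phosphate pathway the members differed among themselves. Pgls, the lactonase of the oxidative branch, read 486 and 602 in wild-type and 223 and 80.1 in Pac1-/- cells. It was lower in both numbers, by 1.12 and 2.91 on the log2 scale, and had the lowest p of the 23 genes (log2 difference -2.02 ± 0.65, 95% confidence interval -3.88 to -0.15; limma unadjusted p = 0.040, adjusted p = 0.866). Pgd, which forms ribulose phosphate and NADPH, read 238 and 495 in wild-type and 355 and 754 in Pac1-/- cells by its brightest probe set (0.59 ± 0.65). A second one read 243 and 379 against 425 and 727 (0.87 ± 0.50), but the remaining 2 had differences of -0.71 and -0.17, so the direction for Pgd depends on the probe set. Taldo1, the transaldolase of the non-oxidative branch, read 789 and 808 in wild-type and 723 and 881 in Pac1-/- cells, with a log2 difference of 0.00 ± 0.36. Tkt, the transketolase, read 2182 and 2604 in wild-type and 2565 and 1781 in Pac1-/- cells, and its difference of -0.16 ± 0.40 lay within the spread of the cultures; it was 0.03 on the values as deposited and 0.65 with median centring.

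For 11 genes more than 1 probe set was tested, and in 6 of them, Slc2a1, Slc2a3, Pfkp, Pfkfb3, P4ha1 and Pgd, the probe sets did not have the same sign. Among the 19 tested probe sets that were not the brightest of their gene, 8 read lowest on Pac1-/- replicate 2. The share was 27.2% of all tested probe sets, brightest ones included, and was not computed for the dimmer ones alone. The sources used here do not say where the probes lie along each transcript, and whether the low 5' signal of the Gapdh control on that array, or of b-Actin on 3 arrays, bears on these readings was not tested. When the tested probe sets of each gene were averaged, 14 of 23 genes were above 0, and P4ha1 (-0.39), Slc2a3 (-0.11) and Pfkp (-1.17) turned to below 0. Pac1-/- replicate 1 was then highest for 11 genes, 10 of them the same, with Slc2a3 in place of Pfkfb3. The median difference between the replicate 2 arrays was -0.26. Probe sets were not averaged in this way for all genes, so these counts and this median have no background beside them.

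**Figure D4:**
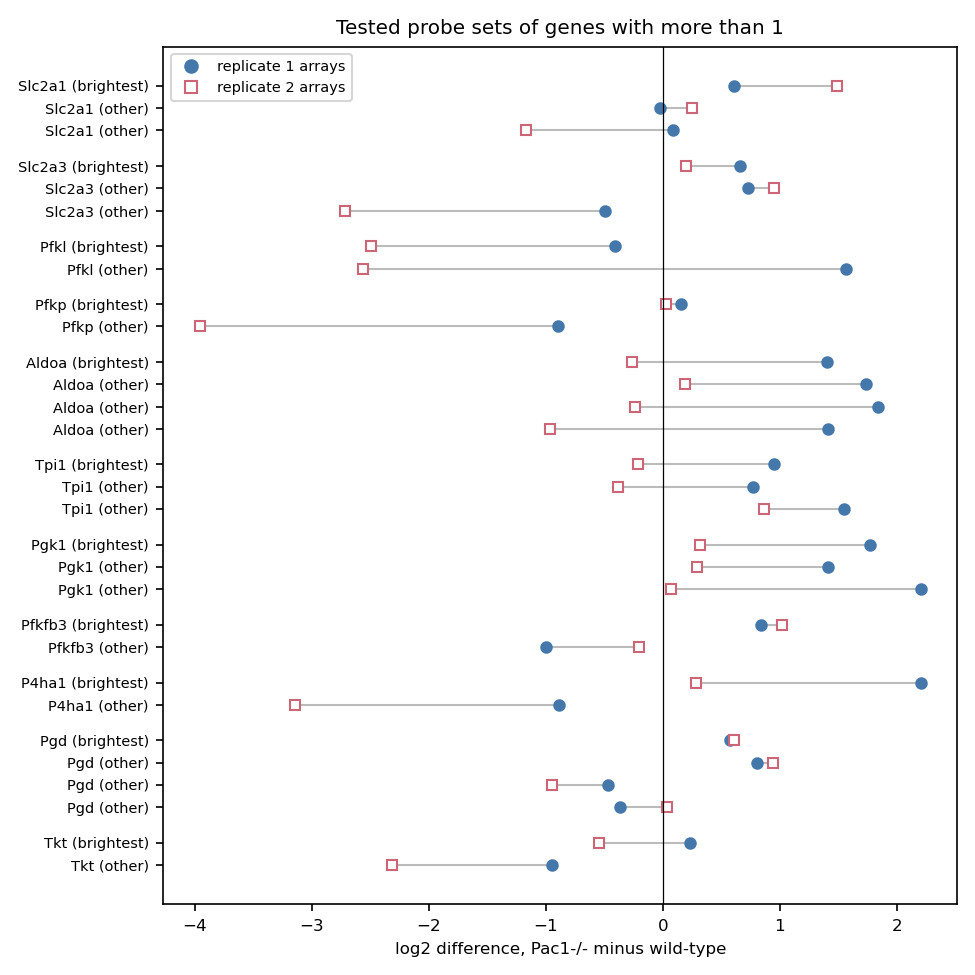
Log2 difference between Pac1-/- and wild-type for each tested probe set of the 11 genes with more than 1, on the replicate 1 arrays (blue circles) and replicate 2 arrays (red open squares), the brightest of each gene first. All probe sets of Aldoa, Tpi1 and Pgk1 lie right of zero in replicate 1. Dimmer probe sets of Slc2a3, Pfkp, P4ha1 and Tkt, and both probe sets of Pfkl, reach between -2.32 and -3.96 in replicate 2.

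Replicate 2 cultures were next set against replicate 1 cultures, since the replicate number held most of the spread on these arrays. By limma with genotype and number as terms, 14.5% of all tested probe sets had an adjusted p under 0.05 for replicate 2 against replicate 1. This fit has 1 residual degree of freedom and 6.3 prior ones. Its standard errors and p-values are therefore drawn mostly from the spread over all tested probe sets and little from the probe set itself. Among the members this was 4 of 42 probe sets, 1 higher in replicate 2 (7.07% of all) and 3 lower (7.43%), and none of the 4 was the brightest probe set of its gene (13.1% of brightest probe sets of all genes). The higher one was a second probe set of Tkt, which read 54.4 and 28.3 on the wild-type and Pac1-/- arrays of replicate 1 and 1147 and 230.5 on those of replicate 2 (log2 difference 3.71 ± 0.53; limma adjusted p = 0.002). The brightest Tkt probe set differed by -0.14 ± 0.49 in the same comparison. The lower ones belonged to Pfkfb3 (-3.11 ± 0.49; limma adjusted p = 0.004), Pfkp (-2.96 ± 0.73; 0.034) and Slc2a3 (-2.32 ± 0.62; 0.047), each dim on the Pac1-/- replicate 2 array at 16.6 to 30.4. The 23 brightest probe sets had a median absolute difference of 0.39 between the numbers, against 0.43 for all tested genes.

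Promoters are shown for the 6 genes that read at least 2-fold higher on Pac1-/- replicate 1 than on wild-type replicate 1 by their brightest probe set, and for Pgls, which read lower. Each is the 250 bases before the outermost annotated start, from RefSeq on GRCm38.p6, 5′ to 3′ on the gene's strand, which is minus for Aldoa and plus for the others. Capitals mark ACGTG or GCGTG on either strand, the letters at the core of the element that HIF binds.
Aldoa, chr7:126800448-126800697: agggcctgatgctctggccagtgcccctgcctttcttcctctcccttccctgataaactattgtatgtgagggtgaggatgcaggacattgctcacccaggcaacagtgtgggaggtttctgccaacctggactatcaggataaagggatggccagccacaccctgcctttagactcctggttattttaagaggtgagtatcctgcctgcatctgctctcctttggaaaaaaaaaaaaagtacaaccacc
Aldoc, chr11:78322823-78323072: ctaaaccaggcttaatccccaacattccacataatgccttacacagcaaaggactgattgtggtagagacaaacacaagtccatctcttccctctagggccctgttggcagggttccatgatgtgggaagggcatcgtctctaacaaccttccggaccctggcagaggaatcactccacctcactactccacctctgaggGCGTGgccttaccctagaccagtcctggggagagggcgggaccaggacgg
Pgk1, chrX:106186850-106187099: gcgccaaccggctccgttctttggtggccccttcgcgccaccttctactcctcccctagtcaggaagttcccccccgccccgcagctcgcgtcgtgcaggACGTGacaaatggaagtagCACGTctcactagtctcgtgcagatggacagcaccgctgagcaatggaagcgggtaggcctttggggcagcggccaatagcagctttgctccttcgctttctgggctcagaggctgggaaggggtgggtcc
Pkm, chr9:59656326-59656575: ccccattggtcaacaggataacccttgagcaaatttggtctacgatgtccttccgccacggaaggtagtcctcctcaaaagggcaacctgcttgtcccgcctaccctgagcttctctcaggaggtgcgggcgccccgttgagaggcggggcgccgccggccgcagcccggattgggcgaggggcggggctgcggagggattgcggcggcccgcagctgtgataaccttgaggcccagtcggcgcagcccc
P4ha1, chr10:59323046-59323295: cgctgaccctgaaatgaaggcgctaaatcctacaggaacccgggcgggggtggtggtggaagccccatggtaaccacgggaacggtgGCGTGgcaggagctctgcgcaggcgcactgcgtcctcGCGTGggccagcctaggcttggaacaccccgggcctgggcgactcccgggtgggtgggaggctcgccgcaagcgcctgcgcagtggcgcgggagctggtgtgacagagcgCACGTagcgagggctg
P4ha2, chr11:54100674-54100923: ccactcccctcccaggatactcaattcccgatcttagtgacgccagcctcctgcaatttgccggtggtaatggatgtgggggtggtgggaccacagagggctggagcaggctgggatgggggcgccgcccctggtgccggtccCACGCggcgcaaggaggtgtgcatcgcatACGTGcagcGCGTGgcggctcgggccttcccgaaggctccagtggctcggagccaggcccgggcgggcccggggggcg
Pgls, chr8:71591934-71592183: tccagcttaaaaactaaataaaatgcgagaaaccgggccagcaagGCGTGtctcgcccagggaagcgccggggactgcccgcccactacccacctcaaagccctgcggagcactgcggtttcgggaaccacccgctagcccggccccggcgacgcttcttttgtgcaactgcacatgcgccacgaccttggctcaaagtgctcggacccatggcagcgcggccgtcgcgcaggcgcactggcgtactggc
Aldoa and Pkm hold 0 matches in these windows, Aldoc and Pgls hold 1 each, Pgk1 holds 2, both ACGTG, and P4ha1 and P4ha2 hold 3 each. Further annotated starts of Aldoa and Pkm have windows with 1 match. No match overlaps another as CACGTG. Promoters matched for 34 of the 35 genes, and 39 of their 48 windows (81.2%) hold at least 1 match, against 38.6% of all 32851 windows of this length. For the tested members 27 of 33 windows did (81.8%), against 58.2% of the windows of tested genes. By gene, 21 of the 22 tested members with a promoter (95.5%) had a match in at least 1 window, against 64.7% of tested genes. The letters contain CG and are commoner in GC-rich sequence; the GC share was 50.4% for Aldoa, 55.2% for Aldoc and 62.8% to 70.0% for the others. A match is a description of these letters, and whether it bears on the readings was not tested.

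Other genes of the pathway were taken from a list of 70 symbols outside the 35, of which 54 were on the array and 27 were tested. Of these, 13 had a log2 difference above 0 and 14 below, with a median of -0.11. Among all tested genes 56.1% were above 0, with a median of 0.10. None of the 27 had a limma adjusted p under 0.05 for the genotype (0% of all tested genes). In the HIF sublist 5 of 12 tested genes were above 0, and its members differed in which array was highest. Egln1, the prolyl hydroxylase that marks HIF for degradation, read 111 and 134 in wild-type and 720 and 246 in Pac1-/- cells (log2 difference 1.79 ± 0.67; limma adjusted p = 0.866), and the carbonic anhydrase gene Car9 read 74.0 and 108 against 215 and 168 (1.09 ± 0.42; limma adjusted p = 0.866). Both were highest on Pac1-/- replicate 1, like Pgk1. The growth factor gene Vegfa, in contrast, read 655 and 91.7 in wild-type and 135 and 66.9 in Pac1-/- cells, and Car12 read 1668 and 79.2 against 730 and 100.4; both were highest on wild-type replicate 1, where no brightest probe set of the 23 members was highest. Car12 passed the test between the replicate numbers (-3.63 ± 0.55; limma adjusted p = 0.003). Hif1a itself, named after its values were seen, read 1547 and 171 in wild-type and 451 and 360 in Pac1-/- cells.

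Among the side branches, Pygl, the glycogen phosphorylase of liver and leukocytes, read 398 and 225 in wild-type and 883 and 599 in Pac1-/- cells, without overlap and with like differences in both numbers (1.28 ± 0.50; limma adjusted p = 0.866). The glycogen genes Ugp2 (0.14 ± 0.35) and Gyg (0.15 ± 0.60) stayed near 0. At the entry of pyruvate into mitochondria, Pdha1 (-0.18 ± 0.38) and Dld (0.46 ± 0.55) were within their spread. The pyruvate carrier gene Mpc1 read 2.6 and 1.6 on the wild-type and Pac1-/- arrays of replicate 1 and 211 and 354 on those of replicate 2 (limma adjusted p = 0.001 between the numbers, with a size that depends on the floor of 16). Of the ribose phosphate genes, Prps2 was, unlike Mpc1, lower in replicate 2 (-2.35 ± 0.51, limma adjusted p = 0.018 between the numbers). Rpia (0.14 ± 0.58), Prps1 (-0.44 ± 0.40) and Rpe (-0.73 ± 0.72) differed between genotypes by about their standard error or less. The phosphoglucomutase genes Pgm1 (-0.35 ± 0.37) and Pgm2 (-0.25 ± 0.57) did likewise.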

How the data were processed

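Total RNA from 4 mast cell cultures was labelled as biotinylated cRNA and hybridised, 1 array per culture, per the labels' protocols. The authors deposited linear intensities, 1 per probe set and array, which the submitters' processing notes credit to MAS5. The arrays had already been scaled, to trimmed means of 150.06 to 150.08. The series' design text describes RMA values, which were not used here. After 64 controls were left out, the arrays were quantile normalised, values below 16 set to 16, and log2 taken. Probe sets with a mean of at least 100 were tested with limma 3.58.1 (lmFit, eBayes, two-sided, Benjamini-Hochberg over all tested probe sets) in R 4.3.3, with genotype as the only term. A further fit took genotype and replicate number. Exact permutation of 2 and 2 arrays, whose smallest p is 0.3333, was not run. Genes were represented by their brightest probe set, and all 35 members are named; of the other pathway genes, up to 2 tested genes per list with the lowest p of each fit are. The members and lists were chosen with earlier results of these data known. Alternatives were the scaling, the intensity minimum, the floor, an intensity trend, the probe set choice, a replicate block and leaving out each array. Steps were run on simulated data with known differences. Recovery was required only at a spread far below that of these arrays, so the simulation does not show what the fits can detect here. Figures used matplotlib 3.10.9.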

Additional observations from a re-analysis of the deposited data

How the results depend on the processing

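No setting gave a limma adjusted p under 0.05 for genotype in any probe set, and the lowest adjusted p of a member's brightest probe set over all settings was 0.377. Of the 23 members, 11 kept the sign of their genotype difference under all settings that gave them a value, and 15 under the 9 that keep the 4 arrays. Among those 9, the intensity minimum, the trend and the replicate block cannot change a member's difference. Only the scaling, the floor and the probe set choice could turn a sign, so these counts are no measure of stability over all 9. The count of all probe sets at an unadjusted p under 0.05 (263) was 1762 with no intensity minimum, 110 with a minimum of 200, 899 with a replicate block and from 79 (wild-type replicate 2 left out) to 408 (Pac1-/- replicate 1 left out). The corresponding count of member probe sets (2) was 1 on the deposited values, 7 with median centring, 5 with no minimum, 8 with a replicate block and 0 to 5 with an array left out. The replicate numbers are a shared number only, since the labels tie no cultures together; deviations of same-numbered arrays correlated at 0.751, and the block gave 0 adjusted calls. Median centring took the members' median difference from 0.37 to 1.15, the median within replicate 2 from 0.13 to 1.26 and the genes highest on Pac1-/- replicate 1 from 11 to 5; averaging probe sets took the median within replicate 2 to -0.26. These 2 medians and this count, with their alternatives, were chosen after seeing the data. Between the replicate numbers, no minimum gave 0 calls in place of 1126, and 0 member probe sets in place of 4; the members gave 2 on the deposited values and 1 with a minimum of 200. The causes were not tested.

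Signs turned for Bnip3 (0.0015) and Tkt (0.030) on the deposited values, and for Bnip3 (0.63), Hk2 (0.38), Pfkm (0.25) and Tkt (0.65) with median centring, for P4ha1 (-0.39), Pfkp (-1.17) and Slc2a3 (-0.11) with probe sets averaged, and for Pgd (-0.71) and Slc2a3 (-1.61) without _x_at and _s_at probe sets. With an array left out the difference ranged from -0.49 to 0.27 for Bnip3, -0.45 to 0.48 for Hk1, -1.44 to 0.62 for Hk2, -0.17 to 0.62 for Ldha, -0.44 to 0.36 for Pfkm, -0.075 to 0.26 for Pfkp, -0.87 to 1.27 for Pkm, -0.14 to 0.14 for Taldo1 and -0.42 to 0.11 for Tkt. With an array left out, 1 genotype has a lone array, assumed to vary like the other genotype, and the replicate number fit has no residual degrees of freedom. Pfkl, Pfkm and P4ha2 were not tested at a minimum of 200. With 2 arrays per genotype, the 95% confidence intervals of the genotype difference spanned more than 2 log2 units for each of the 23 tested members, and readings near the floor of 16 give no reliable size.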

Other observations

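The array's control probe sets for Gapdh, the glyceraldehyde phosphate dehydrogenase of the triose stage, are not members but give deposited intensities from 3 parts of the transcript. The 3' probe set read 3424 and 3963 in wild-type replicates 1 and 2 and 6047 and 3378 in Pac1-/- replicates 1 and 2, highest on Pac1-/- replicate 1. The middle probe set read 3748 and 6537 against 5297 and 172, and the 5' probe set 4293 and 4726 against 4446 and 17.7. The middle and 5' probe sets were highest on wild-type replicate 2, so the highest array depended on the probe set. On Pac1-/- replicate 2 the reading therefore depended on the part of the transcript, from 3378 at the 3' end to 17.7 at the 5' end, while on the other 3 arrays the 3' to 5' ratio lay between 0.80 and 1.36. The b-Actin control differed from this: its 5' probe set read 38.1 and 2768 in wild-type and 14.5 and 44.3 in Pac1-/- replicates 1 and 2, and its 3' probe set 4136 and 4385 against 4246 and 2426.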
